A study of Mus musculus with 24 samples.

Results

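RNA-seq levels were compared between EMS404 cells given SR9011 and TGFb together and EMS404 cells given vehicle. The comparison uses 6 of the 24 libraries of the study, 3 in each group, and covers every gene that reached 1 FPKM in at least 3 of the 24 libraries, which were 11297 genes. FPKM is the number of fragments mapped to a gene, scaled for transcript length and library size. It places each gene of the doubly treated cells against the untreated baseline, whether raised above it, returned to it or lowered below it. SR9011 alone and TGFb alone, with 3 libraries each, are given beside it.

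EMS404 is a line of mouse hepatic stellate cells from a C57Bl6 liver that was immortalized with SV40 and expresses human TLR4, and all groups share these features. Cells of the SR9011+TGFb group had SR9011 for 24 h and then SR9011 with TGFb at 10 ng/mL for 24 h. The SR9011 group had the compound without the cytokine and the TGFb group the cytokine without the compound. The vehicle group is called untreated in the labels and carries DMSO vehicle in its library names. The sources used here state neither the dose of SR9011 nor whether the groups lacking the cytokine had the second 24 h. TGFb therefore cannot be told apart from time in culture or, against SR9011 alone, from a longer time with SR9011. The design statement calls the triplicates biological, but they come from 1 line, so p values describe the spread between cultures of that line.

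Hepatic stellate cells store retinoids in the healthy liver and, when activated by TGFb, turn into contractile cells that secrete collagen and other scar matrix. TGFb signals through its receptors to SMAD2 and SMAD3, which raise matrix genes together with feedback inhibitors of the pathway. SR9011 is an agonist of the nuclear receptors REV-ERB alpha and beta, encoded by Nr1d1 and Nr1d2, which bind the letters AGGTCA and repress clock genes such as Arntl, the gene of BMAL1, and many metabolic and inflammatory genes.

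The values summed to 543014 to 565731 FPKM in the 6 libraries, and their relative depth, read from the smallest steps between low values, was 0.98 to 1.0, while the read totals are unknown. Of 11 stellate cell markers with values, 8 were at 1 FPKM or more in all 6 libraries, with summed levels of 2808 to 2956 FPKM in SR9011+TGFb libraries and 4945 to 5053 FPKM in vehicle libraries. Reln was listed at 0, Des stayed at or under 0.27 FPKM and Rgs5 at or under 0.02 FPKM. All 6 mesothelial markers were also at 1 FPKM or more, with sums of 149 to 169 FPKM in SR9011+TGFb libraries and 551 to 569 FPKM in vehicle libraries. Hepatocyte markers summed to 0 to 0.02 FPKM in SR9011+TGFb libraries and 0.1 to 0.26 FPKM in vehicle libraries, and lymphocyte markers to at most 0.17 FPKM. Endothelial markers summed to 2.69 to 3.38 FPKM in SR9011+TGFb libraries and 1.51 to 1.61 FPKM in vehicle libraries, and macrophage markers to 2.22 to 2.32 FPKM and 1.37 to 2.0 FPKM in those groups. Cholangiocyte markers summed to 2.72 to 3.3 FPKM in SR9011+TGFb libraries and 8.25 to 10.59 FPKM in vehicle libraries, and portal fibroblast markers to 634 to 640 FPKM and 534 to 559 FPKM in those groups. Most of the endothelial sum was Tek, at 2.28 to 2.92 FPKM in SR9011+TGFb libraries and 1.24 to 1.5 FPKM in vehicle libraries. Most of the macrophage sum was Cd68, at 2.14 to 2.24 FPKM and 1.04 to 1.8 FPKM in those groups. Members of a list did not all differ in the same direction. Csf1r had 0.03 to 0.06 FPKM and 0.15 to 0.2 FPKM in those groups within the higher macrophage sum. Pdgfrb had 35 to 38.5 FPKM and 9.92 to 11.3 FPKM within the lower stellate cell sum. Msln had 24.6 to 32.9 FPKM in SR9011+TGFb libraries and 4.65 to 6.18 FPKM in vehicle libraries within the lower mesothelial sum, and Sox9 had 1.24 to 1.51 FPKM and 0.46 to 0.61 FPKM in those groups within the lower cholangiocyte sum. Of the portal fibroblast markers, Fbln2 had 517 to 533 FPKM in SR9011+TGFb libraries and 314.5 to 330.1 FPKM in vehicle libraries, Cd34 101 to 113 FPKM and 215 to 226 FPKM, and Eln 1.96 to 3.68 FPKM and 4.54 to 5.56 FPKM in those groups. The part of these marker differences in the results was not tested. In these bulk samples, fewer cells of a type and less RNA per cell cannot be told apart.

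The 2 treatments together changed most of the measured transcriptome by small amounts. Genes are called here where the limma p after Benjamini-Hochberg adjustment over the 11297 genes was under 0.05, and differences are on the log2(FPKM + 1) scale, SR9011+TGFb minus vehicle, which understates changes of genes near 1 FPKM. Genes were named by a rule given with the processing, where those named after their values were seen are listed. With SR9011+TGFb, 3928 genes (34.8%) were called higher and 3441 (30.5%) lower than with vehicle. Differences of at least 2-fold were fewer, 285 genes (2.52%) higher and 398 (3.52%) lower. The median difference over all tested genes was 0.023 and the median standard error 0.064. In 4529 genes (40.1%) all 3 SR9011+TGFb libraries lay above all 3 vehicle libraries, and in 3933 genes (34.8%) all 3 lay below.

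**Figure D1:**
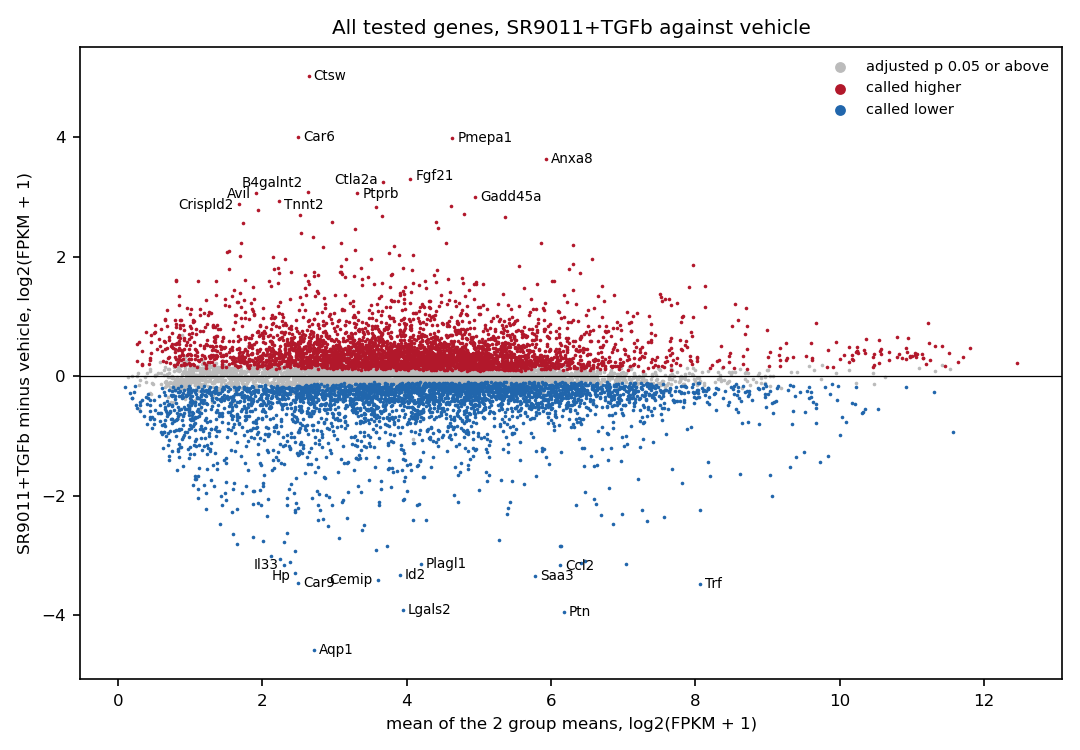
Each point is 1 of 11297 tested genes, with the mean of the 2 group means as log2(FPKM + 1) on the horizontal axis and the log2 difference, SR9011+TGFb minus vehicle, on the vertical axis. Red points are the 3928 genes called higher and blue points the 3441 called lower, and the 12 largest called rises and 12 largest called falls are labelled, from Ctsw at 5.03 to Aqp1 at -4.59.

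Among the largest rises were genes that TGFb alone also raised and genes that SR9011 alone also raised. Pmepa1 (ENSMUSG00000038400, chromosome 2, 173224458 to 173276533 on GRCm38), a SMAD target whose product dampens TGFb signalling, had 94.8, 99.98 and 99.1 FPKM in SR9011+TGFb libraries, 5.03, 5.20 and 6.28 FPKM in SR9011 libraries, 69.6, 70.4 and 74.8 FPKM in TGFb libraries and 5.42, 5.50 and 4.80 FPKM in vehicle libraries. All doubly treated libraries lay above all TGFb libraries, and the rise against vehicle was 3.99 (SE 0.063, limma adjusted p = 3.96e-23). Ctsw, a cathepsin gene whose exons overlap those of Fibp, had 32.6, 34 and 37.5 FPKM in SR9011+TGFb libraries and 0.12, 0.03 and 0.12 FPKM in vehicle libraries, a rise of 5.03 (SE 0.076, limma adjusted p = 2.45e-23). TGFb alone gave a Ctsw difference of 5.14 and SR9011 alone one of -0.045. Anxa8, an annexin gene, rose by 3.64, Ptprb, a receptor phosphatase gene of endothelial cells, by 3.06, and Crispld2, a secreted protein gene, by 2.89, against 3.12, 2.64 and 3.40 with TGFb alone.

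Car6, a carbonic anhydrase gene whose product is secreted in saliva (chromosome 4, 150187015 to 150201332), was a rise of the other kind. It had 16.8, 31 and 18.1 FPKM in SR9011+TGFb libraries, 53, 38.2 and 57 FPKM in SR9011 libraries, 0.77, 0.76 and 0.81 FPKM in TGFb libraries and 0.35, 0.36 and 0.42 FPKM in vehicle libraries. Both groups with SR9011 lay far above both groups without it, and the doubly treated libraries lay below the SR9011 libraries (SR9011+TGFb minus vehicle 4.01, SE 0.155, limma adjusted p = 1.32e-15, and SR9011+TGFb minus SR9011 -1.17). Replicate 2 stood apart from replicates 1 and 3, and the Car6 difference from vehicle was 3.75 without it. Avil, an actin-binding protein gene whose exons overlap Tsfm, had the same order of groups and the same high replicate, with 6.83, 15.4 and 8.34 FPKM in SR9011+TGFb libraries and 0.13, 0.36 and 0.30 FPKM in vehicle libraries, and rose by 3.08 (2.76 without replicate 2). B4galnt2, a glycosyltransferase gene, rose by 3.09, against 3.31 with SR9011 alone and 0.42 with TGFb alone.

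Among the largest falls were genes of a water channel, a growth factor, a galectin and a plasma iron carrier. Aqp1 (ENSMUSG00000004655, chromosome 6, 55336432 to 55348555), the gene of a water channel, had 0.46, 0.18 and 0.40 FPKM in SR9011+TGFb libraries, 4.06, 5.69 and 3.22 FPKM in SR9011 libraries, 1.49, 2.03 and 1.93 FPKM in TGFb libraries and 29, 32.2 and 32.7 FPKM in vehicle libraries. SR9011+TGFb libraries were lowest and the 4 groups did not overlap (difference from vehicle -4.59, SE 0.172, limma adjusted p = 4.28e-15). Ptn, the gene of the growth factor pleiotrophin, had 20.4, 14.5 and 17.7 FPKM in SR9011+TGFb libraries and 278, 278 and 287 FPKM in vehicle libraries, a fall with a difference of -3.94. Trf, the transferrin gene, had 93.5, 63.4 and 81.9 FPKM in SR9011+TGFb libraries and 851, 894 and 918 FPKM in vehicle libraries, a difference of -3.48. Cemip, whose product takes part in hyaluronan breakdown, had -3.41, and Plagl1, an imprinted zinc finger gene, -3.14. Lgals2, a galectin gene whose exons overlap Cdc42ep1, differed by -3.90. Angptl7, a secreted angiopoietin-like gene, had 12, 4.80 and 9.60 FPKM in SR9011+TGFb libraries, 0.21, 0.18 and 0.16 FPKM in SR9011 libraries, 19.1, 21 and 21.3 FPKM in TGFb libraries and 21.8, 23.2 and 25 FPKM in vehicle libraries. The doubly treated libraries lay between SR9011 alone and vehicle (-1.39, limma adjusted p = 3.87e-06), with replicate 2 lowest, and the difference was -1.05 without it.

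Most TGFb-SMAD targets were higher in the doubly treated cells and none was called lower. Of 22 tested targets, 16 were called higher and 0 lower, where 34.8% of all tested genes were called higher and 30.5% lower. Their median difference was 0.47, against 0.023 over all tested genes. With TGFb alone 19 of the 22 were called higher and 0 lower (20.5% and 34.4% of all tested genes) with a median of 0.69, and with SR9011 alone 4 were called higher and 12 lower (40.7% and 28.3%) with a median of -0.3. These comparisons share the vehicle libraries. Besides Pmepa1, the feedback inhibitor gene Ldlrad4 (whose exons overlap Fam210a) rose by 2.40, the SMAD corepressor gene Skil by 1.82 and the corepressor gene Tgif1 by 1.55 (SE 0.080, 0.088 and 0.055, limma adjusted p of at most 1.8e-14). Tgif1 was 49.4, 54.9 and 49.4 FPKM in SR9011+TGFb libraries, 34.9, 31.6 and 33.6 FPKM in SR9011 libraries, 32.1, 32.2 and 28.8 FPKM in TGFb libraries and 16.8, 17.3 and 16.5 FPKM in vehicle libraries, so both agents alone lay between. Smad7, the inhibitory SMAD gene, did not pass the test, at 7.69, 8.09 and 8.30 FPKM in SR9011+TGFb libraries and 8.27, 8.41 and 8.45 FPKM in vehicle libraries (-0.055, limma adjusted p = 0.493). Klf10 and Itgav, a further target and an integrin subunit gene, were also not called, at 0.14 and 0.13.

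Ccn2, a matricellular gene that is also a YAP-TEAD target, had 189, 135 and 183 FPKM in SR9011+TGFb libraries, 15.1, 10.8 and 22.4 FPKM in SR9011 libraries, 181, 166 and 176 FPKM in TGFb libraries and 41.1, 34.9 and 32 FPKM in vehicle libraries. The doubly treated libraries overlapped the TGFb libraries and lay above all vehicle libraries (2.19 against vehicle, SE 0.258, limma adjusted p = 6.61e-07; -0.056 against TGFb, limma adjusted p = 0.867).

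BMP-SMAD targets went the other way. Of 9 tested, 7 were called lower and 1 higher, with a median of -1.52, and TGFb alone gave 7 lower and 2 higher with a median of -1.35. SR9011 alone also gave 7 lower and 1 higher, with a median of -0.48. The shares of all tested genes called lower were 30.5% with SR9011+TGFb, 34.4% with TGFb alone and 28.3% with SR9011 alone. Those called higher were 34.8%, 20.5% and 40.7%. Id2, the gene of a helix-loop-helix protein that blocks differentiation factors, had 4.54, 2.93 and 3.80 FPKM in SR9011+TGFb libraries, 29.8, 30.8 and 25.8 FPKM in SR9011 libraries, 5.61, 5.15 and 5.13 FPKM in TGFb libraries and 45.1, 46.1 and 47.6 FPKM in vehicle libraries. The doubly treated libraries lay below all others, with a difference from vehicle of -3.33 (SE 0.108, limma adjusted p = 5.78e-17). Id3 and Id1, of the same family, differed by -2.24 and -2.06, and Bambi, a decoy receptor gene, by -1.56. The member called higher was Grem1, a secreted BMP antagonist, at 58.5, 51.8 and 58.3 FPKM in SR9011+TGFb libraries and 21, 18.4 and 16.4 FPKM in vehicle libraries (1.55, limma adjusted p = 3.18e-08). Among the ligands, Tgfb1 rose to 43.7, 46.6 and 45.6 FPKM in SR9011+TGFb libraries, against 20.7, 21.1 and 22.7 FPKM in vehicle libraries (1.04), while Tgfb2 (-1.97) and Tgfb3 (-1.49) fell. Of the 14 tested ligands, receptors and SMADs, 8 were called higher and 5 lower (median 0.18), where 34.8% and 30.5% of all tested genes were. Smad3 fell (-0.68), and Tgfbr2, the type II receptor gene, was not called (-0.042, limma adjusted p = 0.401).

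Fibrillar collagen genes ended on both sides of baseline, with both type I chains and the type III chain below it. Of 8 tested, 5 were called lower and 3 higher than with vehicle (30.5% and 34.8% of all tested genes), with a median of -0.65. TGFb alone had 8 called higher and 0 lower (20.5% and 34.4% of all tested genes) with a median of 0.77. SR9011 alone had 0 higher and 7 lower (40.7% and 28.3% of all tested genes) with a median of -1.11. Col1a1 (ENSMUSG00000001506, chromosome 11, 94936224 to 94953042), which encodes the alpha 1 chain of type I collagen, had 1047, 1006 and 1028 FPKM in SR9011+TGFb libraries, 417, 456 and 342 FPKM in SR9011 libraries, 2230.3, 2415 and 2617 FPKM in TGFb libraries and 1651, 1511 and 1561 FPKM in vehicle libraries. The 4 groups did not overlap, and the doubly treated cells stood above SR9011 alone and below vehicle (difference from vehicle -0.61, SE 0.082, limma adjusted p = 7.03e-07). Col1a2, the partner chain, had 854, 807 and 825 FPKM in SR9011+TGFb libraries and 1362, 1295 and 1348 FPKM in vehicle libraries (-0.69, SE 0.059, limma adjusted p = 5.69e-10). Col3a1, the type III chain, had 92.7, 80.3 and 83.4 FPKM in SR9011+TGFb libraries and 183, 198 and 198 FPKM in vehicle libraries (-1.17, SE 0.133, limma adjusted p = 1.58e-07). All 3 lay in the same order of groups, TGFb highest and SR9011 lowest. Col5a3 (-0.82) and Col27a1 (-0.70) also fell. The members that rose were Col5a2, at 282, 290.4 and 289 FPKM in SR9011+TGFb libraries and 189, 186 and 193 FPKM in vehicle libraries (0.60), Col5a1 (0.45) and Col11a1 (0.57), the last with 0.683 FPKM in SR9011+TGFb libraries and 0.130 FPKM in vehicle libraries on average.

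**Figure D2:**
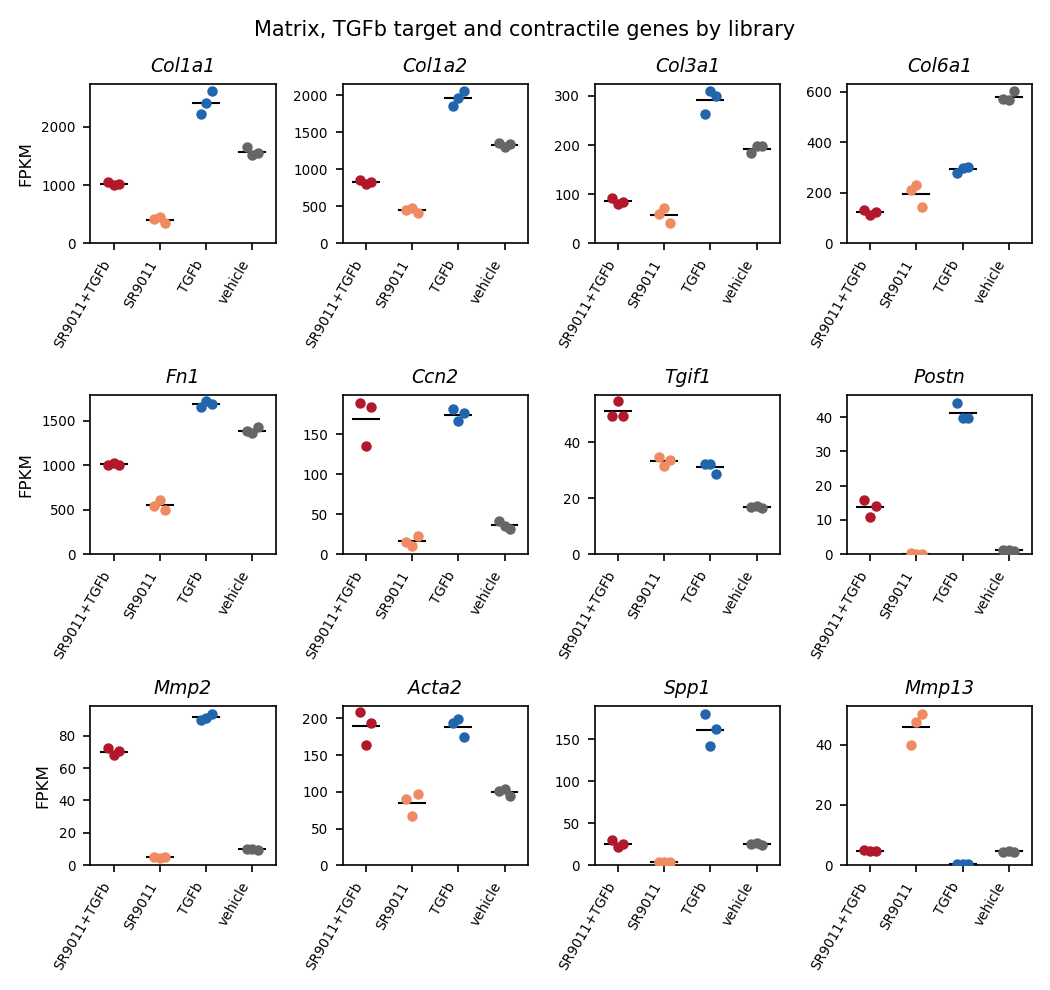
Each panel is 1 matrix, TGFb target or contractile gene, with FPKM on the vertical axis and the SR9011+TGFb, SR9011, TGFb and vehicle groups from left to right, points for single libraries and a line for each group mean. Col1a1 averages 1027, 405, 2421 and 1574 FPKM in that order, while Mmp2 averages 70.2, 4.89, 91.4 and 9.82 FPKM.

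Of 12 other collagens tested, 5 were called higher and 6 lower (median -0.19), where 34.8% and 30.5% of all tested genes were. Differences of at least 2-fold were 1 rise and 3 falls. Col6a1, a chain of the beaded filament collagen VI, had 131, 114 and 124 FPKM in SR9011+TGFb libraries, 210.1, 229.7 and 145 FPKM in SR9011 libraries, 279.8, 298 and 303 FPKM in TGFb libraries and 571, 569 and 605 FPKM in vehicle libraries. All doubly treated libraries were lowest, at a difference of -2.23 from vehicle (SE 0.106, limma adjusted p = 3.03e-14), and Col6a2 differed by -2.36. Col8a2, of a short-chain collagen, had 50.4, 49.8 and 49.4 FPKM in SR9011+TGFb libraries, 4.60, 4.13 and 3.55 FPKM in SR9011 libraries, 71.9, 72.8 and 78 FPKM in TGFb libraries and 8.05, 7.75 and 8.60 FPKM in vehicle libraries. It rose by 2.48 (SE 0.081, limma adjusted p = 2.17e-17) but stayed below TGFb alone (-0.56). Col4a6, a basement membrane chain, fell (-1.05).

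Of 26 tested matrix glycoproteins and proteoglycans, 9 were called higher and 13 lower (median -0.13), where TGFb alone had 15 higher and 7 lower (median 0.33) and SR9011 alone 1 higher and 21 lower (median -0.67). The share called higher with SR9011+TGFb was near the 34.8% over all tested genes, of which 30.5% were called lower. Shares over all tested genes were 20.5% higher and 34.4% lower with TGFb alone, and 40.7% and 28.3% with SR9011 alone. Postn, the gene of the matricellular protein periostin, had 16, 10.8 and 14.2 FPKM in SR9011+TGFb libraries, 0.27, 0.20 and 0.17 FPKM in SR9011 libraries, 44.1, 39.9 and 39.8 FPKM in TGFb libraries and 1.38, 1.29 and 1.05 FPKM in vehicle libraries. It was well above vehicle (2.70, SE 0.098, limma adjusted p = 1.44e-16) and below TGFb alone (-1.54, limma adjusted p = 4.69e-12). The proteoglycan gene Vcan rose by 2.33 and the microfibril gene Mfap4 (exons overlap Mapk7) by 1.79. Fn1, fibronectin, had 1002, 1029 and 1001 FPKM in SR9011+TGFb libraries, 542, 609.8 and 502 FPKM in SR9011 libraries, 1660.1, 1724 and 1695 FPKM in TGFb libraries and 1386, 1359 and 1430.4 FPKM in vehicle libraries. The Fn1 order of groups was that of Col1a1, with a difference of -0.46 from vehicle (SE 0.063, limma adjusted p = 1.07e-06). Ogn, the small leucine-rich proteoglycan osteoglycin, fell to 0.96, 1.14 and 0.88 FPKM in SR9011+TGFb libraries, against 13.7, 14.3 and 14.2 FPKM in vehicle libraries (-2.92).

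Matrix maturation and turnover genes were called in both directions, where 34.8% of all tested genes were called higher and 30.5% lower. Of 19 crosslinking and folding genes, 6 were called higher and 9 lower (median -0.11). Lox, the lysyl oxidase that crosslinks collagen, had 571, 675 and 609 FPKM in SR9011+TGFb libraries, 120.04, 159 and 112 FPKM in SR9011 libraries, 525, 527 and 507 FPKM in TGFb libraries and 279.8, 273 and 279.9 FPKM in vehicle libraries, a rise of 1.15 (SE 0.119, limma adjusted p = 2.59e-08). Pcolce, an enhancer of procollagen processing whose exons overlap Fbxo24, fell (-1.72), as did P4hb (-0.58), a subunit of prolyl hydroxylase, whereas the collagen-modifying genes Plod1 (0.56) and Loxl4 (0.67) rose. Of 21 proteases and inhibitors, 9 were called higher and 8 lower (median 0.05). Mmp2, the gelatinase A gene, had 72.5, 67.8 and 70.3 FPKM in SR9011+TGFb libraries and 9.78, 9.94 and 9.73 FPKM in vehicle libraries (2.72, SE 0.056, limma adjusted p = 4.45e-21). Mmp14, the membrane protease that activates MMP2, had 474, 483 and 479 FPKM in SR9011+TGFb libraries, 256, 251 and 246 FPKM in SR9011 libraries, 201, 196 and 209.7 FPKM in TGFb libraries and 127, 134 and 131 FPKM in vehicle libraries. Each agent alone raised Mmp14 (0.94 and 0.63 for SR9011 and TGFb), and the doubly treated libraries lay above all others (1.87 against vehicle, limma adjusted p = 1.33e-20). Timp1, an inhibitor of these proteases, rose by 0.25 (limma adjusted p = 0.00321), against 1.36 with TGFb alone. The aggrecanase gene Adamts1 (-1.55), the plasminogen activator gene Plat (-1.22) and stromelysin Mmp3 (-2.51) fell.

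Contractile genes were called higher in 8 and lower in 4 of 16 (median 0.21), where 34.8% and 30.5% of all tested genes were. TGFb alone had 11 contractile genes higher and 1 lower (20.5% and 34.4% of all tested genes) with a median of 0.53. SR9011 alone had 2 higher and 11 lower (40.7% and 28.3% of all tested genes) with a median of -0.29. Acta2, alpha smooth muscle actin and the usual marker of activated stellate cells, had 209, 164 and 194 FPKM in SR9011+TGFb libraries, 90.4, 67.6 and 97.6 FPKM in SR9011 libraries, 193, 199 and 174 FPKM in TGFb libraries and 102, 104 and 93.9 FPKM in vehicle libraries. Levels with both agents overlapped those of TGFb alone and lay above those of vehicle (0.91, SE 0.145, limma adjusted p = 1.59e-05). The integrin gene Itgb5 rose by 1.54 and the actin-binding caldesmon gene Cald1 by 0.98. The members called lower were calponin Cnn1 (-1.29), the myosin light chain gene Myl9 (-0.83) and the tropomyosin genes Tpm2 (-0.38) and Tpm4 (-0.24). Of 16 stellate cell identity genes, 6 were called higher, a share near that of all tested genes, and 10 lower (median -0.33). Among them were the PDGF receptor genes in opposite directions, Pdgfrb at 1.70 and Pdgfra at -2.10. The transcription factor genes Wt1 (-1.68), which is also a mesothelial marker, and Gata6 (-1.40) fell. Of 15 YAP-TEAD genes, 8 were called higher and 2 lower (median 0.37), with Axl at 0.46, Tead2 at 0.45 and Tead4 at 0.67, and with Amotl2 (-0.22) and Tead1 (-0.31) as the members called lower.

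Most genes that TGFb alone raised at least 2-fold stayed above the vehicle level, and some ended below it. Of the 152 genes called at least 2-fold higher with TGFb alone (1.35% of those tested), 133 were called above vehicle with SR9011+TGFb. Of these 133, 30 were also called above TGFb alone. A further 7 were called lower than vehicle and 11 were back within 0.25 log2 of vehicle without a call. Among all tested genes, 34.8% were called higher and 30.5% lower than vehicle with SR9011+TGFb. These counts rest on comparisons that share the vehicle or the TGFb libraries and are descriptions. Mmp9 (ENSMUSG00000017737, chromosome 2, 164940780 to 164955850), the gelatinase B gene, had 0.17, 0.12 and 0.17 FPKM in SR9011+TGFb libraries, 0.06, 0.05 and 0.08 FPKM in SR9011 libraries, 4.99, 4.99 and 5.47 FPKM in TGFb libraries and 1.53, 1.89 and 1.85 FPKM in vehicle libraries. The TGFb libraries were highest and both groups with SR9011 lay under every vehicle library (SR9011+TGFb minus vehicle -1.25, SE 0.081, limma adjusted p = 3.76e-12). Il6, the interleukin gene, had 0.46, 0.28 and 0.41 FPKM in SR9011+TGFb libraries, 5.47, 4.82 and 4.29 FPKM in TGFb libraries and 1.75, 2.10 and 1.57 FPKM in vehicle libraries (-1.02, SE 0.087, limma adjusted p = 5.6e-10). The connexin gene Gjb5 (-1.15), the serotonin receptor gene Htr7 (-0.71) and the growth factor gene Igf1 (-0.51) had the same pattern of calls.

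Spp1 (ENSMUSG00000029304, chromosome 5, 104435118 to 104441050), which encodes the matrix and cytokine protein osteopontin, was not called against vehicle. It had 29.7, 21.8 and 25.9 FPKM in SR9011+TGFb libraries, 3.57, 3.61 and 3.79 FPKM in SR9011 libraries, 180.1, 142 and 162 FPKM in TGFb libraries and 25.9, 27.1 and 24.4 FPKM in vehicle libraries. The doubly treated libraries overlapped those of vehicle, while the TGFb libraries lay far above and the SR9011 libraries far below (-0.008 against vehicle, SE 0.087, limma adjusted p = 0.943). Mmp13, the collagenase gene, had the opposite order of the single agents, with 5.03, 4.62 and 4.80 FPKM in SR9011+TGFb libraries, 39.97, 47.4 and 50.2 FPKM in SR9011 libraries, 0.35, 0.43 and 0.31 FPKM in TGFb libraries and 4.51, 4.74 and 4.55 FPKM in vehicle libraries. Its doubly treated libraries also overlapped vehicle (0.054, SE 0.104, limma adjusted p = 0.659). Il1rl1, the receptor gene for IL-33 (-0.088), the collagen gene Col12a1 (0.026) and Tgfbi (0.023) were not called against vehicle, where TGFb alone gave 1.97, 1.39 and 1.32. Il1rl1 had 0.31, 0.18 and 0.33 FPKM in SR9011+TGFb libraries and 0.21, 0.49 and 0.37 FPKM in vehicle libraries. Of the groups given here it reached 1 FPKM only with TGFb alone. At such levels a difference near 0 on the log2(FPKM + 1) scale says little. A p that misses the threshold does not show that these levels were equal.

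In the other direction, 206 genes were called at least 2-fold lower with TGFb alone (1.82%), and 191 of them were called below vehicle with SR9011+TGFb. Of these 191, 81 were also called below TGFb alone. A further 9 were called above vehicle with SR9011+TGFb, and 4 were back within 0.25 log2 of vehicle without a call. The shares of all tested genes called above and below vehicle were 34.8% and 30.5%. The count of 4 was 7 without SR9011+TGFb replicate 1, 8 without vehicle replicate 2 and 9 without vehicle replicate 3. Gpnmb, a lysosomal and melanosomal glycoprotein gene, had 19.6, 18 and 18.5 FPKM in SR9011+TGFb libraries, 45, 41.6 and 55.3 FPKM in SR9011 libraries, 0.70, 0.76 and 0.81 FPKM in TGFb libraries and 5.15, 5.90 and 4.70 FPKM in vehicle libraries. The 4 groups did not overlap, and SR9011+TGFb was above vehicle by 1.66 (SE 0.108, limma adjusted p = 6.18e-12). The sugar nucleotide enzyme gene Uap1l1 (1.36), Plxdc1 (1.06), xanthine dehydrogenase Xdh (0.71), sorbitol dehydrogenase Sord (0.67) and the cobalamin carrier gene Tcn2 (0.48) were also above baseline, where TGFb alone gave -1.17, -1.29, -1.12, -1.22 and -1.0.

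**Figure D3:**
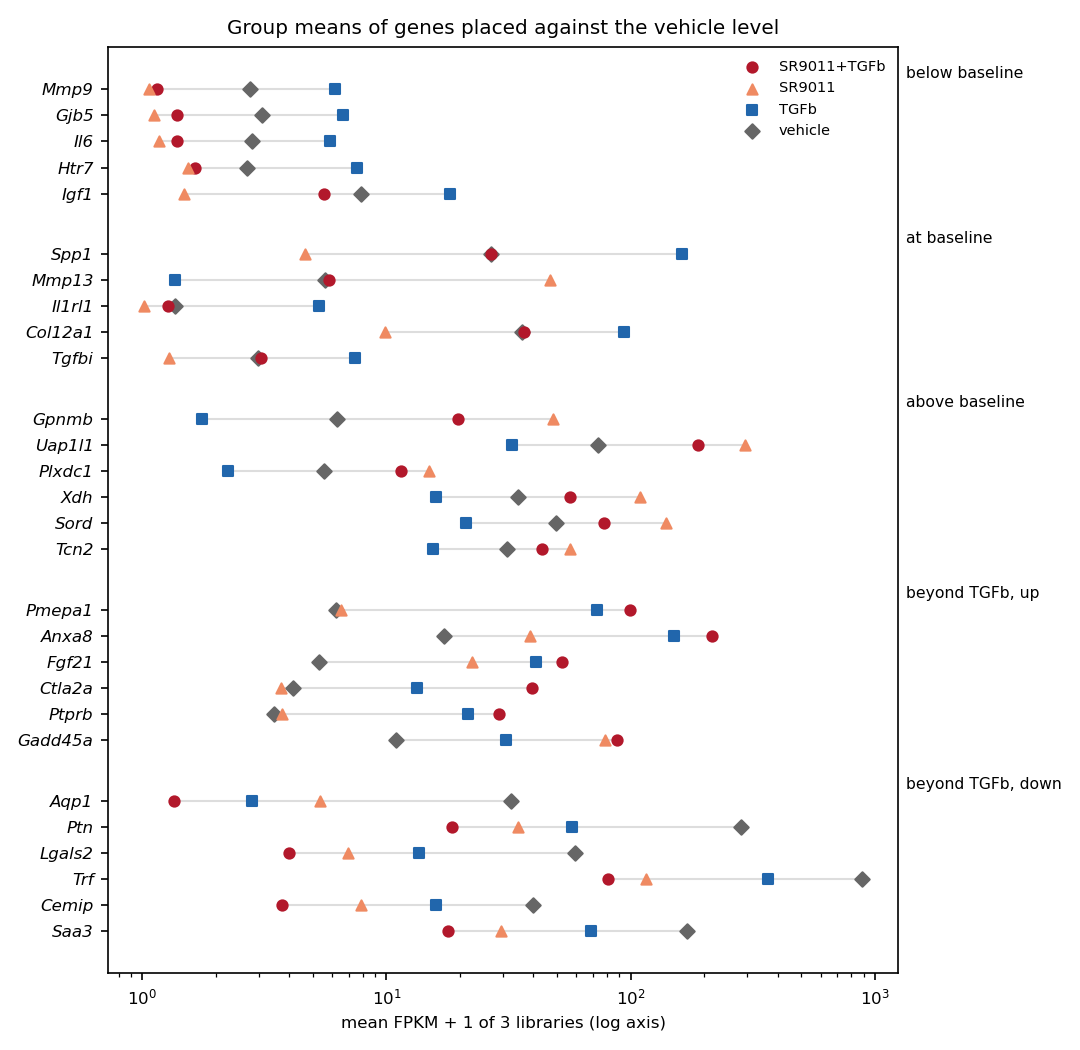
Group mean FPKM + 1 on a log axis for genes named by their state against baseline, with 1 line of points per gene for SR9011+TGFb, SR9011, TGFb and vehicle. Mmp9 averages 0.153 FPKM with SR9011+TGFb, below the 1.76 FPKM of vehicle, Spp1 averages 25.8 and 25.8 FPKM in those groups, and Gpnmb 18.7 and 5.25 FPKM.

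Some genes with SR9011+TGFb lay past their levels with either agent alone. Against SR9011 alone, TGFb and a longer time with SR9011 cannot be told apart. With SR9011+TGFb, 352 genes were called above vehicle, SR9011 and TGFb, and 485 below all 3. Over all tested genes, 36.8% were called higher and 24% lower than with TGFb alone, and 14.3% higher and 31% lower than with SR9011 alone. Ctla2a, an inhibitor of cathepsin L-like proteases, had 38.1, 40.04 and 37.1 FPKM in SR9011+TGFb libraries, 2.60, 2.82 and 2.69 FPKM in SR9011 libraries, 13.8, 13 and 10.2 FPKM in TGFb libraries and 2.94, 3.52 and 2.91 FPKM in vehicle libraries. Every doubly treated library was above every library of the other 3 groups, by 1.57 over TGFb (limma adjusted p = 3.39e-11) and 3.41 over SR9011. Tnnt2, the cardiac troponin T gene, followed with 11.9, 11 and 13.1 FPKM in SR9011+TGFb libraries, 0.34, 0.15 and 0.13 FPKM in SR9011 libraries, 3.18, 3.75 and 3.31 FPKM in TGFb libraries and 0.65, 0.74 and 0.70 FPKM in vehicle libraries (2.94 against vehicle, limma adjusted p = 6.6e-16). Mgp, an inhibitor of calcification, had 206, 92.5 and 163 FPKM in SR9011+TGFb libraries, with replicate 2 lowest, and 36.4, 44.1 and 37.3 FPKM in vehicle libraries (1.88, or 2.202 without replicate 2). Cilp2, a cartilage matrix gene, rose by 1.80 and Pi16, a peptidase inhibitor gene, by 2.79. Birc7, of the apoptosis inhibitor family, had 2.01, 2.28 and 1.93 FPKM in SR9011+TGFb libraries and was listed at 0 in all 3 vehicle libraries. Past both agents in the lower direction, besides Aqp1, Cemip and Ogn, were Igfbp3, a carrier of insulin-like growth factors, with 28.8, 22 and 25.2 FPKM in SR9011+TGFb libraries and 177, 189 and 197 FPKM in vehicle libraries (-2.85), the chemokine gene Cxcl1 (-2.50) and Cebpd (-2.15), a transcription factor gene that overlaps Spidr.

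Of 11 core clock genes tested, 6 were called higher and 4 lower (median 0.36), with the share called lower near the 30.5% called lower over all tested genes, and Npas2 was under the level for testing. Arntl (ENSMUSG00000055116, chromosome 7, 113207465 to 113314126), the BMAL1 gene, had 12.2, 11.1 and 12.4 FPKM in SR9011+TGFb libraries, 7.75, 7.39 and 8.17 FPKM in SR9011 libraries, 11.5, 11.3 and 10.8 FPKM in TGFb libraries and 6.41, 6.36 and 6.13 FPKM in vehicle libraries. Both groups with TGFb lay above both groups without it, and SR9011+TGFb rose by 0.82 against vehicle (SE 0.051, limma adjusted p = 1.96e-12). SR9011 alone also lay above vehicle, by 0.26 (limma adjusted p = 8.45e-05). SR9011+TGFb was not called against TGFb alone (0.080, limma adjusted p = 0.182). The 30 bases around the TAGGTCA match of Arntl, in capitals, are shown because these extended letters are the form that REV-ERB and ROR receptors bind. They lie at chr7:113207529-113207558 on the plus strand of GRCm38.p6 (RefSeq promoter table). The match begins 31 bases after a RefSeq start that lies further into the gene than the gene start given above.
Arntl: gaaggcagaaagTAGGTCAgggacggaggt
TAGGTCA stood on either strand in the 300-base windows (250 before to 50 after the start) of 1 of 9 core clock genes with a window and in 2.61% of 32851 windows of all genes. The E-box CACGTG stood in 2 of 9, Cry1 and Per1, and in 7.15% of all windows. These counts are of genes with a match in any of their windows, while the percentages are of single windows. A match describes letters and not binding.

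Per1, a repressor of CLOCK and BMAL1, had 16.7, 17.1 and 18.3 FPKM in SR9011+TGFb libraries, 17.4, 16.6 and 16.8 FPKM in SR9011 libraries, 6.77, 7.38 and 6.68 FPKM in TGFb libraries and 7.10, 8.11 and 7.74 FPKM in vehicle libraries. Both groups with SR9011 were above both without it (1.09 against vehicle, SE 0.060, limma adjusted p = 2.38e-13). Per2 had 2.42, 2.29 and 2.29 FPKM in SR9011+TGFb libraries and 4.83, 5.06 and 5.18 FPKM in vehicle libraries, and fell below each agent alone (-0.85, SE 0.066, limma adjusted p = 9.22e-11). Nr1d1, the target of the agonist, whose exons overlap Thra, had 4.83, 4.34 and 4.43 FPKM in SR9011+TGFb libraries and 2.44, 2.21 and 1.73 FPKM in vehicle libraries (0.83). Nr1d2 (0.51), Clock (0.41) and Rora (0.36) were called higher, and Per3 (-0.33) and Cry2 (-0.17) lower, while Cry1 was not called (0.11, limma adjusted p = 0.175).

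Of 10 clock output genes, 4 were called higher and 4 lower (median -0.1), shares near the 34.8% and 30.5% over all tested genes. Dbp, a circadian transcription factor gene whose exons overlap Sphk2, had 3.39, 2.72 and 2.85 FPKM in SR9011+TGFb libraries, 9.43, 7.93 and 7.16 FPKM in SR9011 libraries, 2.33, 2.78 and 2.34 FPKM in TGFb libraries and 7.13, 8.97 and 7.40 FPKM in vehicle libraries. Both groups with TGFb lay below both without it (-1.15 against vehicle, SE 0.097, limma adjusted p = 4.72e-10). Hlf, of the same family, had 6.11, 4.23 and 5.96 FPKM in SR9011+TGFb libraries, 3.57, 5.41 and 5.54 FPKM in SR9011 libraries, 0.88, 0.72 and 0.81 FPKM in TGFb libraries and 2.22, 2.33 and 2.02 FPKM in vehicle libraries, and rose by 1.0, although TGFb alone gave -0.82. Tef, the remaining family member, fell (-0.38). The repressor genes Bhlhe40 (1.19), Bhlhe41 (0.88) and Nfil3 (0.28) rose, and Nampt, an enzyme of NAD salvage, fell (-0.34).

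**Figure D4:**
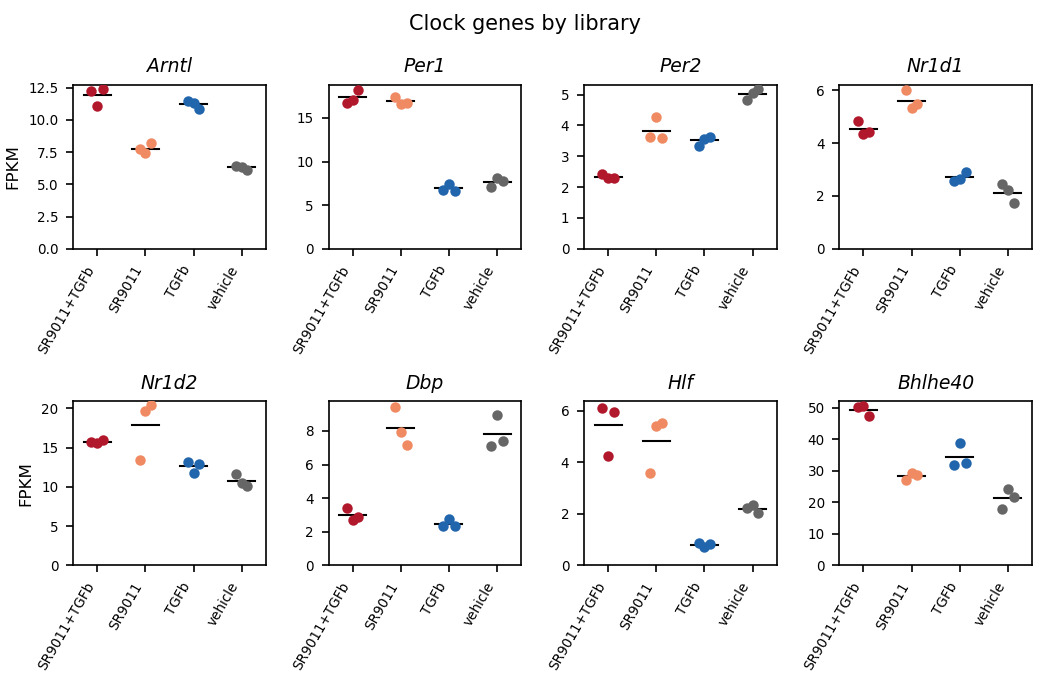
FPKM of 8 clock genes in single libraries (points) and group means (lines) for SR9011+TGFb, SR9011, TGFb and vehicle from left to right. Arntl averages 11.9, 7.77, 11.2 and 6.30 FPKM in these groups, and Per1 17.4, 16.9, 6.94 and 7.65 FPKM.

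Genes of the integrated stress response, in which ATF4 raises amino acid supply and stress genes, were higher with no member called lower. Of 29 tested, 25 were called higher and 0 lower (median 0.85), with 10 at least 2-fold higher. TGFb alone had 21 higher and 1 lower (median 0.58) and SR9011 alone 28 higher and 0 lower (median 1.06). Among all tested genes, 34.8% were called higher with SR9011+TGFb, 20.5% with TGFb alone and 40.7% with SR9011 alone. The shares called lower were 30.5%, 34.4% and 28.3%. The 250 bases before the start of 4 members, from the RefSeq promoter table on GRCm38.p6, are shown because each holds TGATGNAA, the core of the amino acid response element that ATF4 binds, in capitals on either strand. They lie at chr7:45615491-45615740 (minus strand) for Fgf21, chr7:126625471-126625720 (minus strand) for Nupr1, chr2:119350992-119351241 (plus strand) for Chac1 and chr3:50443614-50443863 (minus strand) for Slc7a11.
Fgf21: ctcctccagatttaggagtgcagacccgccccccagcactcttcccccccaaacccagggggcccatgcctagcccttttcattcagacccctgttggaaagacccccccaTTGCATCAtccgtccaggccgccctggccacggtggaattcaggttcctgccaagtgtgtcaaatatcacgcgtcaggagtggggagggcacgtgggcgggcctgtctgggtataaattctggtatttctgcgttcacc
Nupr1: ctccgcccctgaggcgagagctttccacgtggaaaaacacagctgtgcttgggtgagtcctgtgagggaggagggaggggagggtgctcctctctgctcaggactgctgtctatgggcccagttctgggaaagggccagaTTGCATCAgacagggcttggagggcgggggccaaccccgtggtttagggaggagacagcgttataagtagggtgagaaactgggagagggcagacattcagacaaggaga
Chac1: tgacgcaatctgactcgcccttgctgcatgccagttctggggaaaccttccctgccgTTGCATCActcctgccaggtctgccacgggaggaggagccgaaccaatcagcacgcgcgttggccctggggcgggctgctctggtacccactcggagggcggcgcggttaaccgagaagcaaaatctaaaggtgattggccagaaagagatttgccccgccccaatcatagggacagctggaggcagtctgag
Slc7a11: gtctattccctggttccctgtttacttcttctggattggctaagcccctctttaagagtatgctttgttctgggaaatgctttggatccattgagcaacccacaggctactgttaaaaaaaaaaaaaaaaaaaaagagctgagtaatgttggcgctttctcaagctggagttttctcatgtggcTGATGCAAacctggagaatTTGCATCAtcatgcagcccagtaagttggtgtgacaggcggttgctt
The matches begin 139 bases before the start in Fgf21, 110 in Nupr1, 193 in Chac1, and 66 and 47 in Slc7a11, which holds 2 in opposite orientation. The letters were in the 300-base windows of 10 of 25 members with a window, namely Aars, Asns, Atf3, Chac1, Fgf21, Gars, Nupr1, Slc7a11, Trib3 and Vldlr, and in 3.97% of all 32851 windows. A member counted if any of its windows held the letters, whereas the 3.97% is over single windows, which belong to 27025 genes. The share of members is a description of the list and was not tested.

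Fgf21 (ENSMUSG00000030827, chromosome 7, 45613886 to 45615490), a stress-induced metabolic hormone gene, had 49.1, 55.7 and 49.2 FPKM in SR9011+TGFb libraries, 24.1, 19.6 and 20.5 FPKM in SR9011 libraries, 36, 44.1 and 40.1 FPKM in TGFb libraries and 4.06, 4.58 and 4.18 FPKM in vehicle libraries. Each agent alone raised it and the doubly treated libraries lay above all others (3.31 against vehicle, SE 0.095, limma adjusted p = 2.2e-18). Ddit3, the gene of the stress factor CHOP, whose exons overlap Mars, had 104, 125 and 113 FPKM in SR9011+TGFb libraries, 284, 201 and 240.1 FPKM in SR9011 libraries, 36.8, 36.6 and 38.9 FPKM in TGFb libraries and 34.1, 39.7 and 36.5 FPKM in vehicle libraries. It lay above vehicle by 1.60 (limma adjusted p = 6.22e-12) and below SR9011 alone by a difference of -1.07 (limma adjusted p = 1.47e-08). The cofactor gene Nupr1 rose by 1.96, the pseudokinase gene Trib3 by 1.73, Ppp1r15a (exons overlap Tulp2), which reverses the translation block, by 1.78, the glutathione-degrading Chac1 by 1.60, the cystine transporter gene Slc7a11 by 0.69 and Atf4 itself by 0.85. Vldlr (0.21), Psat1 (-0.15) and Ddit4 (0.12) were among the 4 members not called. Limited to the libraries of the 2 groups, the fit called Psat1 lower (limma adjusted p = 0.0115) and Vldlr higher (limma adjusted p = 0.00288), so that 1 member was then lower. With the replicate number as a block in the fit of all groups, Vldlr was also called higher (limma adjusted p = 0.00697). ER chaperone and quality control genes were called higher in 9 and lower in 4 of 19 (median 0.11), where 34.8% and 30.5% of all tested genes were. Herpud1 (1.25), Sel1l (0.79), Edem1 (0.64) and Hyou1 (0.64) were higher. The members called lower, Pdia6 (-0.24), Calr (-0.18), Pdia4 (-0.13) and Hsp90b1 (-0.13), differed little, and 1 was called lower after quantile normalization.

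Lysosome and autophagy genes were called higher in 20 and lower in 3 of 28 (median 0.46), in contrast to TGFb alone, which had 3 higher and 20 lower (median -0.36). SR9011 alone had 20 higher and 2 lower (median 0.52). Ctsl, the cathepsin L gene, had 557, 579.8 and 579 FPKM in SR9011+TGFb libraries, 909, 805 and 921 FPKM in SR9011 libraries, 169.8, 166 and 163 FPKM in TGFb libraries and 235, 255 and 251 FPKM in vehicle libraries. Both groups with SR9011 lay above vehicle and the TGFb group below it (1.21 for SR9011+TGFb against vehicle, SE 0.055, limma adjusted p = 5.79e-15). Mcoln1, a lysosomal calcium channel gene, rose by 1.20, and Hexa, a hexosaminidase gene whose exons overlap Tmem202, by 1.15. Tfeb (-0.54), which encodes an activator of lysosomal genes, Ctso (-0.39) and Ctsz (-0.21) were the members called lower. With TPM, 6 members were called lower. NRF2 targets were called higher in 10 and lower in 6 of 21 (median 0.12), where TGFb alone had 1 higher and 13 lower (median -0.2) and SR9011 alone 18 higher and 1 lower (median 0.4). Among all tested genes, 34.8% were called higher and 30.5% lower with SR9011+TGFb. These shares were 20.5% and 34.4% with TGFb alone and 40.7% and 28.3% with SR9011 alone. The share of NRF2 targets called lower with SR9011+TGFb was near that of all tested genes. The glutathione synthesis gene Gclc rose by 0.94, the quinone reductase gene Nqo1 by 1.18 and ferritin light chain Ftl1 by 0.90, and Osgin1 fell (-1.11). Of 7 AhR targets, 2 were called higher, Nqo1 and Cyp1b1 (1.45), and 2 lower, Ugt1a6a (-0.46), whose exons overlap other Ugt1a genes, and Aldh3a1 (-0.65). Both AhR shares were near those of all tested genes.

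Inflammation and chemokine genes were mostly lower. Of 23 tested, 17 were called lower and 3 higher (median -1.13), and 14 were at least 2-fold lower. SR9011 alone had 20 lower and 1 higher (median -1.02), and TGFb alone 11 lower and 6 higher (median -0.14). The shares of all tested genes called lower were 30.5% with SR9011+TGFb, 28.3% with SR9011 alone and 34.4% with TGFb alone. Those called higher were 34.8%, 40.7% and 20.5%. Il33 (ENSMUSG00000024810, chromosome 19, 29925114 to 29960718), the alarmin gene, had 0.79, 0.51 and 0.62 FPKM in SR9011+TGFb libraries, 0.68, 1.03 and 0.45 FPKM in SR9011 libraries, 16.3, 17.1 and 15.3 FPKM in TGFb libraries and 13, 14.2 and 13.9 FPKM in vehicle libraries. Both groups with SR9011 lay under every library without it (-3.17 against vehicle, SE 0.103, limma adjusted p = 1.92e-17). Ccl2, the monocyte attractant gene, had 27.5, 16.8 and 23.3 FPKM in SR9011+TGFb libraries, 16.1, 14.2 and 19 FPKM in SR9011 libraries, 130.1, 139 and 133 FPKM in TGFb libraries and 179, 235 and 208 FPKM in vehicle libraries, with the same split (-3.16, limma adjusted p = 6.97e-13). Cxcl5 (-2.04), the adhesion molecule gene Vcam1 (-1.22) and the NF-kB inhibitor gene Nfkbia (-1.27) fell. The acute phase genes Saa3, at 22.1, 8.73 and 19.6 FPKM in SR9011+TGFb libraries and 135, 199 and 174 FPKM in vehicle libraries (-3.34, or -2.95 without SR9011+TGFb replicate 2), and Hp (-3.30, or -3.04 without it) fell as well. The members called higher were Ptgs2 (1.54), the cyclooxygenase gene, Il11 (1.07) and Cx3cl1 (0.70).

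Of 27 interferon response genes, 25 were called lower and 1, the MHC light chain gene B2m (0.46), higher (median -0.84), where TGFb alone had 22 lower and 0 higher (median -0.56). SR9011 alone had 20 lower and 3 higher (median -0.63). Of all tested genes, 30.5% were called lower with SR9011+TGFb, 34.4% with TGFb alone and 28.3% with SR9011 alone. The shares called higher were 34.8%, 20.5% and 40.7%. Cxcl10, a chemokine gene whose exons overlap Art3, had 28.8, 21.5 and 24.7 FPKM in SR9011+TGFb libraries and 156, 246 and 163 FPKM in vehicle libraries. The groups did not overlap, and vehicle replicate 2 was highest (-2.84, SE 0.168, limma adjusted p = 1.4e-11, and -2.64 without that library). Isg15, a ubiquitin-like modifier gene, had 48.8, 50.6 and 51.4 FPKM in SR9011+TGFb libraries and 116, 205 and 126 FPKM in vehicle libraries (-1.50), with the same library highest. The list kept 25 called lower and 1 higher with each of the 6 libraries left out in turn. The immunoproteasome gene Psmb10 (-1.60), the transcription factor gene Irf1 (-0.83) and the GTPase gene Gbp3 (-1.92) fell.

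Glycolysis genes were lower in 16 and higher in 1 of 18 (median -0.89), and SR9011 alone had the same counts (median -0.9), where TGFb alone had 8 lower and 1 higher (median -0.27). Among all tested genes, 30.5% were called lower with SR9011+TGFb, 28.3% with SR9011 alone and 34.4% with TGFb alone. The shares called higher were 34.8%, 40.7% and 20.5%. Ldha, lactate dehydrogenase A, had 569.6, 580.3 and 575 FPKM in SR9011+TGFb libraries, 644, 555 and 593 FPKM in SR9011 libraries, 1136, 1317 and 1159.7 FPKM in TGFb libraries and 1336, 1557 and 1494 FPKM in vehicle libraries. Vehicle replicate 1 was the lowest of its group. SR9011+TGFb libraries lay inside the range of the SR9011 libraries and below all TGFb and vehicle libraries (-1.34 against vehicle, SE 0.121, limma adjusted p = 2e-09, and -1.41 without vehicle replicate 1). Pgk1, of a glycolytic kinase, had 419, 424 and 407 FPKM in SR9011+TGFb libraries and 825, 1221 and 1198 FPKM in vehicle libraries, again with vehicle replicate 1 lowest (-1.35). Aldoc (-1.54), Hk1 (-0.99) and Tpi1 (-1.26), all glycolytic enzymes, fell, and the regulatory kinase gene Pfkfb3 was called higher (0.14) but not with TPM. Of 12 hypoxia response genes, 9 were called lower and 1 higher (median -1.25). SR9011 alone also had 9 lower and 1 higher (median -1.31), and TGFb alone 4 lower and 1 higher (median -0.21). Car9, a carbonic anhydrase gene induced by HIF, had 0.77, 0.69 and 0.63 FPKM in SR9011+TGFb libraries, 1.74, 1.22 and 1.26 FPKM in SR9011 libraries, 9.16, 10.8 and 9.31 FPKM in TGFb libraries and 15.6, 19.9 and 18 FPKM in vehicle libraries, and differed from vehicle by -3.47 (SE 0.177, limma adjusted p = 6.28e-13). The oxygen sensor genes Egln3 (-2.58) and Egln1 (-1.20) fell, while the angiogenic factor gene Vegfa rose to 157, 169.9 and 161 FPKM in SR9011+TGFb libraries, against 62.5, 72.1 and 68.9 FPKM in vehicle libraries (1.25).

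Cholesterol synthesis genes were called lower in 23 and higher in 1 of 24 (median -0.55), against 22 lower and 1 higher with SR9011 alone (median -0.67) and 13 lower and 2 higher with TGFb alone (median -0.18). The shares of all tested genes called lower were 30.5% with SR9011+TGFb, 28.3% with SR9011 alone and 34.4% with TGFb alone. Those called higher were 34.8%, 40.7% and 20.5%. Pmvk, a kinase gene of the mevalonate pathway, had 23.4, 19 and 23.2 FPKM in SR9011+TGFb libraries and 44.4, 38.9 and 45.2 FPKM in vehicle libraries. The groups did not overlap (-0.94, SE 0.072, limma adjusted p = 8.96e-11). The mevalonate enzyme gene Mvk (-0.90) and the cyclase gene Lss (-0.68) fell, and the isomerase gene Ebp was the member that rose (0.68). Fatty acid synthesis genes were called lower in 9 of 14, led by Fads2 (-1.11), Elovl6 (-1.39), Gpam (-0.37) and Fasn (-0.35). The 1 called higher, Acsl3 (0.18, limma adjusted p = 0.0409), overlapped between groups and lost its call in several alternatives. Of 6 cholesterol efflux and LXR target genes, Pltp (1.48, exons overlap Ctsa) and Mylip (0.48) were called higher and Apoe (-2.27), Abca1 (-1.40) and Lpcat3 (-0.34, exons overlap Emg1) lower. Of 25 ATP synthesis genes, 13 were called lower and 2 higher (median -0.14), and quantile normalization gave 8 lower and 5 higher. The 2 called higher were Cox6a2 (2.10), a subunit gene of cytochrome oxidase in heart and muscle, and Cox5a (0.24). Atp5c1 (-0.32), of the ATP synthase, and Sdhc (-0.33) and Sdhd (-0.28), of succinate dehydrogenase, fell.

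Proliferation genes were called lower in 27 and higher in 2 of 32 by modest amounts (median -0.32). SR9011 alone had 26 lower and 2 higher (median -0.41), and TGFb alone 20 lower and 2 higher (median -0.14). Of all tested genes, 30.5% were called lower with SR9011+TGFb, 28.3% with SR9011 alone and 34.4% with TGFb alone. The shares called higher were 34.8%, 40.7% and 20.5%. Bub1b, a mitotic checkpoint gene, had 54, 51.7 and 54.7 FPKM in SR9011+TGFb libraries and 79.96, 80.2 and 79.9 FPKM in vehicle libraries. The groups did not overlap (-0.57, SE 0.037, limma adjusted p = 4.9e-12). The nucleotide enzyme gene Tyms (-0.60) and the kinase gene Cdk1 (-0.59) fell, and Ccnd1, the cyclin D1 gene, had the one fall of at least 2-fold, at 1.56, 1.17 and 1.49 FPKM in SR9011+TGFb libraries, 4.24, 3.87 and 5.47 FPKM in SR9011 libraries, 2.28, 2.26 and 2.68 FPKM in TGFb libraries and 11.2, 8.85 and 9.21 FPKM in vehicle libraries (-2.15). Mcm2 (0.20) and E2f1 (0.14) were called higher. Of 20 p53 targets and CDK inhibitors, 12 were called higher and 5 lower (median 0.44). SR9011 alone had 10 higher and 7 lower (median 0.23), and TGFb alone 8 higher and 7 lower (median 0.07). Gadd45a, a growth arrest and DNA damage gene, had 81.5, 99.2 and 80.5 FPKM in SR9011+TGFb libraries, 81.4, 66.8 and 84.6 FPKM in SR9011 libraries, 30.4, 29.5 and 30.1 FPKM in TGFb libraries and 10.01, 10.2 and 9.49 FPKM in vehicle libraries, a rise of 3.01 (limma adjusted p = 1.19e-18). Cdkn1a, the p21 gene, rose by 1.56 and Phlda3 by 0.92, while Cdkn2c (-0.76), Cdkn1c (-1.61), Pmaip1 (-0.75), Btg2 (-0.67) and Sesn1 (-0.62) fell.

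**Figure D5:**
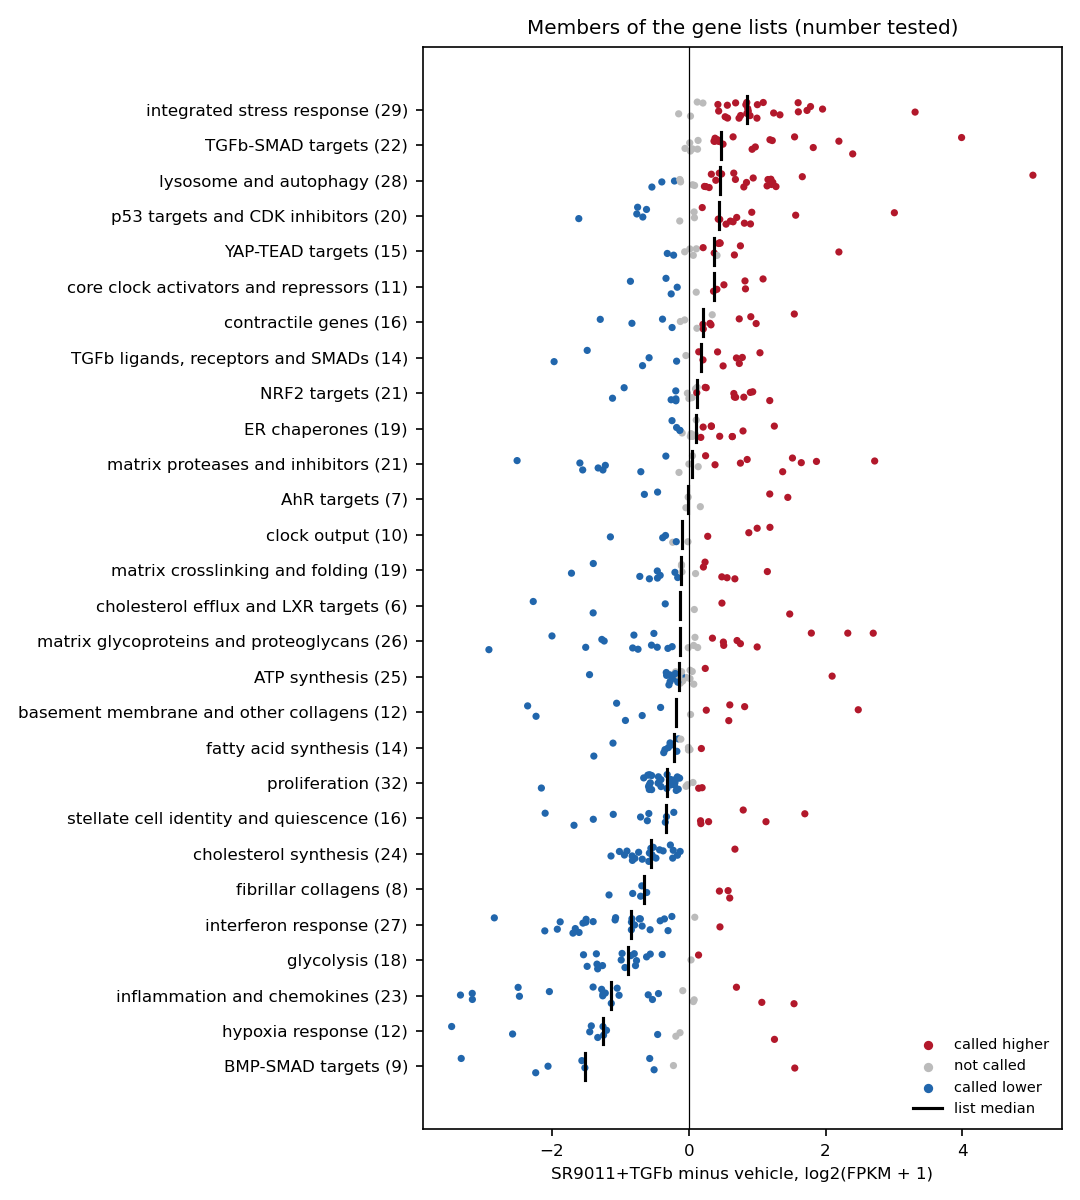
Log2 differences, SR9011+TGFb minus vehicle, of the tested members of 28 gene lists (points, coloured by call) with the median of each list (bar). Medians run from -1.52 for BMP-SMAD targets to 0.85 for the integrated stress response, beside 0.023 over all 11297 tested genes.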

How the data were processed

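RNA-seq of 24 EMS404 libraries in 8 groups was used. The deposited table holds FPKM values with 2 decimals, which the authors made with HISAT2 2.0.4, Bowtie2 2.2.5, RSEM and mm10, with DESeq2 also named, per the submitters' processing notes. RNA came from either of 2 purification kits, per the labels' protocols, but the sources used here state neither the kit of each library nor the strand setting. The table has 16620 lines and 16612 identifiers. 8 identifiers stood on 2 lines each, so 16 lines were left out and 16604 genes used. GENCODE M21 gave symbols and positions on GRCm38, and 12 identifiers had no match. Read totals are unknown. Library sums ranged from 503920 to 610024 FPKM, relative depth ranged from 0.89 to 1.06 over the series, and the values carry no counting interval.

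Genes that reached 1 FPKM in 3 or more libraries were fitted as log2(FPKM + 1), with a pseudocount of 1, in limma 3.58.1 (R 4.3.3), all 8 groups in 1 model with 16 residual degrees of freedom and trended, robust variance moderation. Tests were 2-sided, with Benjamini-Hochberg adjustment and a threshold of 0.05. Comparisons with TGFb or SR9011 alone come from the same model. The fit was also run on simulated data with few changed genes and the same spread in every group. These data differ in both respects, so that run cannot show how the p values behave here. Tables and plots used Python 3.11.15, pandas 2.3.3, numpy 2.4.6 and matplotlib 3.10.9. Promoter windows of 300 bases are from RefSeq (GRCm38.p6) and were searched on both strands.

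Members, gene lists and rules were chosen with earlier results of these data known. Named were the 12 largest called rises and falls with groups apart, up to 6 genes of each state against baseline, up to 4 members of each of 28 lists with the smallest adjusted p, and a fixed set of matrix, clock and stress genes such as Acta2. Others, named after their values were seen, were B2m, Grem1, Ebp, Pfkfb3, Ptgs2, Il11, Cx3cl1, Mcm2, E2f1, Tfeb, Ctso, Ctsz, Col5a1, Col27a1, Chac1, Slc7a11, Rora, Per3, Cry2, Cry1, Bhlhe40, Nfil3, Nampt, Tpm2, Tpm4, Pdia6, Calr, Pdia4, Hsp90b1, Vldlr, Psat1, Ddit4, Klf10, Itgav, Tgfbr2, Amotl2, Tead1, Acsl3, Pmaip1, Btg2, Cdkn1c, Sesn1, Fn1, Lox, Isg15, Pgk1, Atf4, Mylip and Cox5a. A few genes that met these rules are not reported here. Exons of Ccnd1, Tpi1, Tead2, Ctsz, Pdia6 and Acsl3 also overlap those of other genes, so their reads may be shared. Overlap was taken on either strand.

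Alternatives were pseudocounts of 0.1 and 0.5, no filter, FPKM of at least 5, TPM, quantile normalization, moderation without trend, a fit limited to the 2 groups, a block for the replicate number and the omission of each library in turn.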

Additional observations from a re-analysis of the deposited data

How the results depend on the processing

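The 4 counts of called genes stayed within 1.5 times the main count under all alternatives except that with a pseudocount of 0.1 the genes at least 2-fold lower numbered 601, against 398, beside 424 against 285 at least 2-fold higher. TPM gave 3546 called higher and 3561 lower, against 3928 and 3441, and quantile normalization 3782 and 3531. Leaving out each of the 6 libraries in turn gave 3578 to 3767 higher and 3169 to 3248 lower, with 274 to 299 and 379 to 416 at least 2-fold. Same-numbered replicates of the 2 groups had residual correlations of -0.098, 0.016 and -0.17, and SR9011+TGFb replicate 3 had 0.192 with vehicle replicate 1. Residuals within a group are linked through the group mean, so these values cannot decide whether the numbers pair libraries. The replicate number as a block gave 3979 higher and 3484 lower in the fit of all groups, and 4265 and 3692 in the fit of the 2 groups alone, which without the block gave 4329 and 3735. The median difference of all tested genes was 0.005 with TPM and 0.014 after quantile normalization, against 0.023.

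For 209 named genes, 3294 values under alternatives kept direction and call, 16 lost the call and 9, all of Vldlr, Psat1, Itgav or Klf10, gained it in fits of the 2 groups alone or with the replicate block. The other 8 changed sign, all within 0.15 log2 of 0. The integrated stress response had 1 member called lower, Psat1, in the fit of the 2 groups alone, blocked (limma adjusted p = 0.00714) or not. After quantile normalization Il1rl1 was at 0.080, Col12a1 at -0.005 and Hsp90b1 at 0.008, of which only Hsp90b1 was called in the fit reported. With each library left out, Col12a1 ranged from -0.007 to 0.079, Tgfbi from -0.139 to 0.153 and Spp1 from -0.112 to 0.104. The cause of these changes was not tested. With a pseudocount of 0.1, 13 genes raised by TGFb ended below vehicle and 15 lowered by it ended above, against 7 and 9, and TPM gave 12 below. Counts back at the vehicle level after a rise or a fall with TGFb, 11 and 4 as reported, were 19 and 23 with a pseudocount of 0.1, and 19 and 7 with TPM. A pseudocount of 0.5 gave 9 for the falls, with 14 genes above vehicle, and FPKM of at least 5 gave 7 for the rises. Genes past TGFb alone numbered 53 higher and 124 lower with a pseudocount of 0.1, against 30 and 81. With that pseudocount, 329 genes lowered by TGFb were called below vehicle with SR9011+TGFb, against 191. Unknown read depth limits what can be said of genes near or under 1 FPKM, and the SR9011 libraries spread more within their group (median SD 0.101 log2) than the SR9011+TGFb (0.049) or vehicle libraries (0.052), so the shared estimate of spread may make p values with SR9011 alone too small.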
